A study of Rattus norvegicus with 16 samples.

Results

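Dorsal hairy skin of rats 14 days after its cutaneous nerves were cut was compared with the same skin 7 days after the cut. The comparison used 10 of the 16 arrays of the series, namely the 5 arrays of the 14 day group and the 5 arrays of the 7 day group, chosen by their labels alone. All were adult female Sprague-Dawley rats, with 1 array per skin sample. In every rat of both groups dorsal cutaneous nerves were transected and their stumps ligated on either side of a nerve left intact as a source of new axons, and the rostral of the denervated zones was sampled. The 6 naïve rats had no surgery. They took no part in the test and served only to show where untreated skin lies. The authors made the incision on the right side and reflected the skin to the left, which spared the left-side skin. No sham-operated skin was analysed here, so the effects of incision and nerve cut cannot be told apart. Neither can the time since surgery and any other difference between the rats of the 2 times. The pieces of skin carried the cutaneous trunci, a thin muscle under the dermis that kept its own nerve supply. In bulk samples, fewer cells of a type and less RNA per cell cannot be told apart. The p-values below measure the spread between rats of a group.

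When skin loses its sensory and sympathetic axons, intact axons next to it can sprout into the empty zone, and the labels place 7 days at the start of that growth and 14 days in its maintenance. Wounded skin heals: macrophages enter, fibroblasts lay down and cross-link collagen, and the activity later subsides. Hair follicles cycle between rest and growth, and in growth they make hair keratins, keratin-associated proteins and the proteins of the inner root sheath, which moulds the emerging shaft.

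Values are log2 levels made by robust multi-array averaging (RMA), and a difference of 1 is a doubling of signal. Probesets that name exactly 1 gene gave 14217 genes, which were tested with limma, and a gene is called here when its Benjamini-Hochberg adjusted p lay under 0.05. At 14 days 1882 genes were called higher (13.2% of genes tested) and 2523 lower (17.7%). The median difference of all genes was -0.0055. Groups did not overlap in 1161 of the genes called higher (8.17% of genes tested) and in 1579 of those called lower (11.1%). Whether called or not, 9.07% of genes had all 14 day arrays above all 7 day arrays and 11.6% had them below. A difference of at least 1 was met by 95 genes called higher (0.668%) and 91 called lower (0.64%). The split depended on scaling, with 42.7% of calls higher in the deposited values, against 61.5% (3105 higher, 1948 lower) after each array's median was subtracted and 52.0% (1801 and 1665) after quantile normalization was repeated. Without 14 day replicate 3 there were 1095 genes higher, and without 14 day replicate 5 there were 1231 higher and 1644 lower. With the naïve arrays in the model the counts were 1260 and 1430. Leaving out dim genes, with a mean level under 5, gave 1403 higher and 2425 lower.

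Arrays correlated across probesets, which are not independent replicates, at 0.993 to 0.996 within 14 days and at 0.978 to 0.992 within 7 days. The 7 day rats were thus the more varied group. Among them, 7 day replicate 1 correlated with the 14 day arrays at 0.987 to 0.992, while 7 day replicates 2 and 4 correlated with them at 0.965 to 0.974. The beta-actin probesets for the 3′ and 5′ ends of the transcript, a sign of RNA quality, differed by 0.583 to 0.692 at 7 days and by 0.465 to 0.736 at 14 days, so their ranges overlapped. The lower quartile of each array's probesets lay at 4.83 to 4.94 at 7 days and at 4.96 to 5.00 at 14 days. Dim signal was thus slightly higher at 14 days, and its part in small rises of dim genes was not tested. Naïve skin was more varied still, and naïve replicates 1 and 2 stood apart from the other 4, with high hair and low muscle signal. Markers of epidermis, muscle and fibroblasts were among the brightest genes, with Krt5 at means of 12.9 and 12.9 and Acta1 at 13.7 and 13.6 at 7 and 14 days. The T cell marker Cd3e lay at 5.56 and 5.52.

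Hair shaft genes made several of the largest increases among genes whose groups did not overlap. All 3 measured hair shaft keratins and all 4 measured keratin-associated proteins were called higher at 14 days, against 13.2% of all genes, with median differences of 2.04 and 1.67 (1 and 2 of them called with the naïve arrays in the model). Without replicate 3 of either time 1 hair shaft keratin was called. Of 13 measured genes of the inner root sheath and medulla, 9 were higher, none was lower and 4 were not called, with a median of 1.50. The 9 include Crisp3 and Dsc2, described below. Members of this and all other lists were chosen with earlier results of these data known, so the counts are descriptions and not independent support. In the hair shaft keratin list 13 entries, and in the inner root sheath list 10, were not measured by a probeset with 1 gene.

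Krtap1-5, which encodes a keratin-associated protein of the hair cortex, read 12.67, 10.75, 8.49, 8.15 and 10.93 at 7 days and 13.47, 13.60, 13.72, 13.58 and 13.52 at 14 days. All 14 day arrays lay above all 7 day arrays, near the highest values on the arrays, and replicate 1 was the highest 7 day array. The difference was 3.38 (standard error 0.724, adjusted p = 0.00949), a 10.4-fold change. Its neighbour in the genome Krtap1-1 read 11.88, 10.45, 9.32, 7.38 and 9.85 at 7 days and 12.86, 12.47, 12.69, 12.60 and 12.65 at 14 days, again without overlap, and differed by 2.88 (standard error 0.637, adjusted p = 0.0107). Krt36, a type I hair keratin, read 7.77, 7.46, 6.21, 6.30 and 8.15 at 7 days and 8.53, 9.13, 8.85, 8.54 and 8.99 at 14 days. It differed by 1.63 (standard error 0.356, adjusted p = 0.0101), and its 14 day arrays also lay above all naïve arrays, which ranged from 5.91 to 8.47.

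Promoters of hair genes are shown because 7 of the 14 genes in these hair lists that were called higher and had a RefSeq promoter hold the letters TATAAA within 250 bases before the start, on either strand. Among all 27457 promoters of the RefSeq table for the GRCr8 assembly, 13.1% hold them. Below are the 120 bases before the start of 4 of these genes, 5′ to 3′ on the gene's own strand, with TATAAA or its complement in capitals. In Krtap1-5 the first match runs into a second one on the opposite strand. The letters CCAAT occurred in 7 of the 14 (50%), against 34.3% of all promoters. In muscle genes called lower, described further on, CCAAT occurred in 12 of 24 (50%) and TATAAA in 7 (29.2%), and in matrix genes called lower they occurred in 35.5% and 12.9%. A match describes the letters and shows no bound factor. Of the genes shown, Krt33b was called in 5 and Krt71 in 3 of the 10 fits that left out 1 array.
Krtap1-1, chr10:85042477-85042596, minus strand: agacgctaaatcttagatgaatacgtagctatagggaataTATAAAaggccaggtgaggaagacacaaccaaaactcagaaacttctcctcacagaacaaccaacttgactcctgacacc
Krtap1-5, chr10:85039857-85039976, minus strand: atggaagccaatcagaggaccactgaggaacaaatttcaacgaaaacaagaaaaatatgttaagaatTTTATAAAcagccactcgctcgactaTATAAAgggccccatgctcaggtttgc
Krt33b, chr10:85462077-85462196, minus strand: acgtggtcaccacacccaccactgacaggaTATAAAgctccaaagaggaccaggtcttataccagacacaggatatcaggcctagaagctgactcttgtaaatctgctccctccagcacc
Krt71, chr7:134761034-134761153, minus strand: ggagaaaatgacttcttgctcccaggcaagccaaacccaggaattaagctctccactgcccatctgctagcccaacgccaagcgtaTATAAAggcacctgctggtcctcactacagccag

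The inner root sheath list was led by Crisp3, a cysteine-rich secretory protein that is better known from glands than from the root sheath. It read 5.84, 4.06, 3.90, 3.90 and 4.29 at 7 days and 7.89, 8.50, 8.61, 6.96 and 7.52 at 14 days. At 7 days only replicate 1 stood clear of the naïve arrays (3.96 to 4.21), where signal is close to the floor of the scale, which leaves its difference of 3.50 (standard error 0.415, adjusted p = 0.00193) uncertain in size. Dsc2, a cadherin of desmosomes, read 8.71, 6.34, 5.59, 5.04 and 7.99 at 7 days and 9.49, 9.76, 9.99, 9.45 and 9.59 at 14 days. The groups did not overlap, and the difference was 2.93 (standard error 0.611, adjusted p = 0.00868). Padi1 and Padi3 convert arginine in structural proteins to citrulline, a step that hardens the inner root sheath. Padi1 read 8.06, 6.14, 7.47, 6.16 and 6.57 at 7 days and 9.07, 8.90, 9.11, 8.83 and 8.67 at 14 days, without overlap, and differed by 2.04 (standard error 0.338, adjusted p = 0.00428). Padi3 differed by 1.83 (standard error 0.452, adjusted p = 0.0154). The called members of this list fell to 4 without 7 day replicate 2, without 14 day replicate 2, 3, 4 or 5, to 5 without 7 day replicate 4 or 14 day replicate 1, and to 3 with the naïve arrays in the model.

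Hair gene levels at 7 days differed widely between rats. As a mean over the inner root sheath list, relative to the mean of the 10 denervated arrays, 7 day replicates 1 to 5 scored 0.38, -1.62, -0.39, -1.63 and -0.55, and the 14 day arrays scored 0.61 to 0.89. On the same scale naïve replicates 1 and 2 scored 0.37 and 0.57, and the other naïve arrays between -4.19 and -3.82. Skin with high and with low hair gene signal therefore occurred without any surgery, and the part of the rats' hair cycle stage in the differences between the times was not tested. With the naïve arrays in the model, Krtap1-5, Krtap1-1, Padi1 and Padi3 were no longer called, while Krt36, Dsc2 and Crisp3 were.

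**Figure D1:**
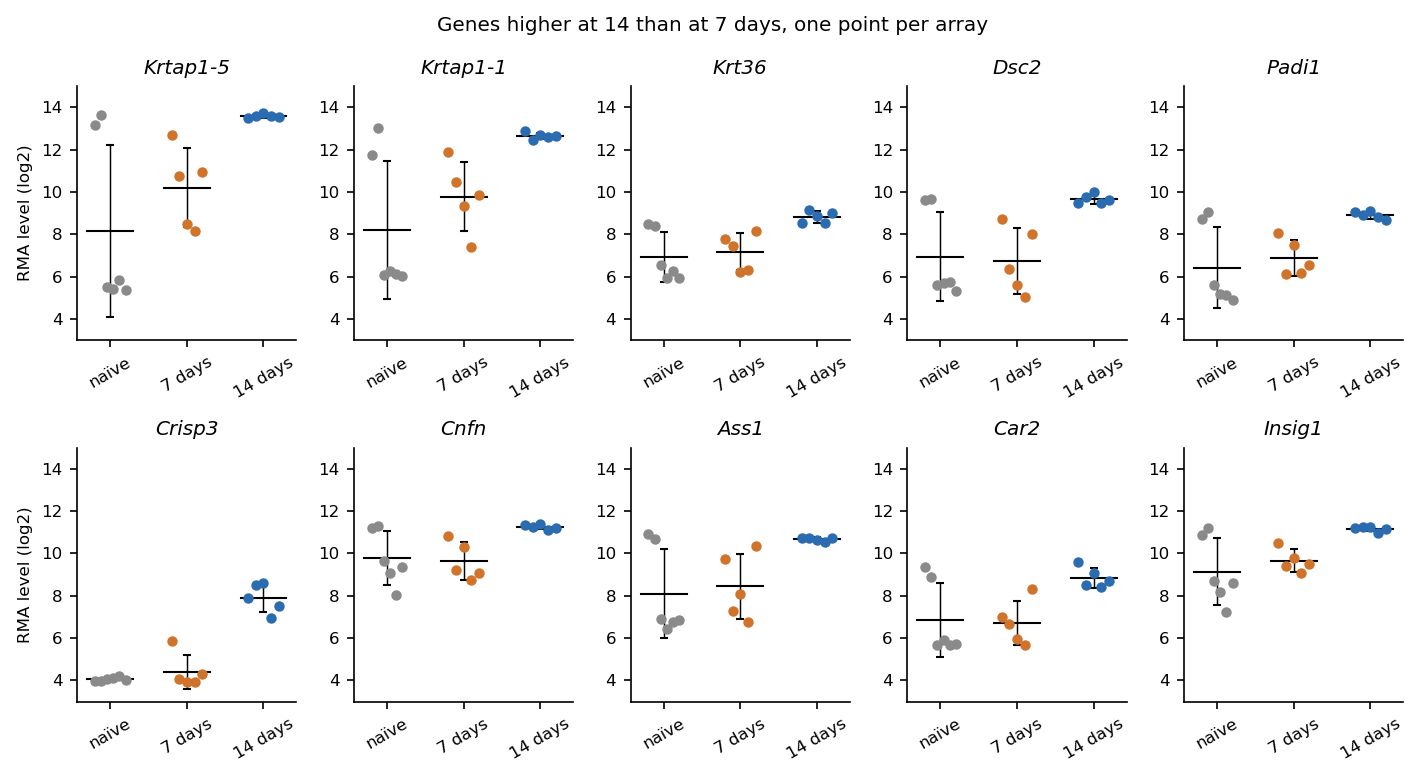
Log2 RMA level of 10 genes called higher at 14 than at 7 days, with 1 point per array for 6 naïve, 5 7 day and 5 14 day rats, and lines for the mean and SD of each group. In every panel the 5 14 day points lie above all 5 7 day points, and in every panel except Crisp3, not only in hair genes, the naïve points fall into a high pair and a low set of 4.

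Some epidermal differentiation genes rose as well. Of 27 measured genes of epidermal differentiation and the cornified envelope, 8 were higher (29.6%, against 13.2% of all genes) and none lower. Their median was 0.62. With the naïve arrays in the model 4 were higher, and Ivl and Col17a1 below were not called. Sprr1b, a small proline-rich cross-linking protein picked after its values were seen, had the largest increase of any called gene, at means of 7.43 and 10.96 and a difference of 3.53 (standard error 0.96, adjusted p = 0.0217). Its groups overlapped. Cnfn, which encodes cornifelin of the cornified envelope, read 10.84, 9.20, 10.28, 8.75 and 9.07 at 7 days and 11.35, 11.22, 11.40, 11.09 and 11.20 at 14 days. Groups did not overlap, and it differed by 1.63 (standard error 0.348, adjusted p = 0.00949). Ivl, the involucrin gene, differed by 1.22 (standard error 0.32, adjusted p = 0.0191). Among the basal keratinocyte genes Col17a1, a collagen of hemidesmosomes, went the other way and differed by -0.58 (standard error 0.133, adjusted p = 0.0118). Keratins Krt5 and Krt14 of the basal layer were not called, at differences of 0.06 and -0.02.

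Of 37 measured hair cycle signals, 10 were higher (27.0%, against 13.2% of all genes) and 4 lower (10.8%, against 17.7%), with a median of 0.05. Between 5 and 11 were higher when 1 array was left out, with 5 or 6 without 7 day replicate 2 or 4 or 14 day replicate 1, 2, 3 or 5, and with the naïve arrays in the model 2 were higher, Bmp4 and Wnt11 not among them. Lower calls were 2 without 14 day replicate 1 or 3 and 1 with the naïve arrays. The largest change of the list was a decrease, in Sfrp2, a secreted modulator of Wnt signals, which read 9.79, 10.52, 10.51, 12.11 and 10.50 at 7 days and 10.06, 8.57, 8.34, 9.55 and 8.84 at 14 days. Its groups overlapped, it differed by -1.61 (standard error 0.432, adjusted p = 0.0204), and without 14 day replicate 3 it was not called. Bmp4, a bone morphogenetic protein of the dermal papilla, read 8.33, 7.99, 8.26, 7.58 and 7.77 at 7 days and 8.73, 8.65, 8.80, 8.72 and 8.77 at 14 days, without overlap, and differed by 0.75 (standard error 0.131, adjusted p = 0.00489). Bmp2 read 6.87, 7.18, 6.73, 6.22 and 6.76 at 7 days and 7.43, 7.37, 7.54, 7.30 and 7.46 at 14 days. Its arrays lay below every naïve array at both times (7.68 to 8.89), and it was higher at 14 days by 0.67 (standard error 0.144, adjusted p = 0.00975). Wnt11, a secreted Wnt ligand, differed by 0.55 (standard error 0.118, adjusted p = 0.00972). Among 23 hair cycle transcription factors 3 were higher and 4 lower, close to the shares of all genes (6 higher without 7 day replicate 1 and after subtraction of the array median). Elf5, an ETS factor of epithelia, read 7.32, 6.14, 6.53, 5.61 and 6.08 at 7 days and 7.83, 8.03, 7.86, 7.44 and 7.62 at 14 days and differed by 1.42 (standard error 0.264, adjusted p = 0.0061).

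Several metabolic enzymes were among the largest increases. Of 23 measured urea cycle and polyamine genes 5 were higher (21.7%, against 13.2% of all genes) and 4 lower (17.4%, against 17.7%). Their median was 0.09. When 1 array was left out, 3 to 7 were higher and 2 to 5 lower, and with the naïve arrays in the model 1 was called in each direction. In this list Ass1 makes argininosuccinate and Asl splits it into arginine and fumarate, so the pair stands in sequence in arginine synthesis. Ass1 read 9.74, 7.27, 8.07, 6.77 and 10.33 at 7 days and 10.71, 10.75, 10.62, 10.52 and 10.74 at 14 days, a difference of 2.23 (standard error 0.599, adjusted p = 0.0208) without overlap. Asl read 7.72, 7.19, 7.22, 7.13 and 7.59 at 7 days and 8.52, 8.39, 8.38, 8.24 and 8.34 at 14 days, and its groups were tighter, with a difference of 1.01 (standard error 0.117, adjusted p = 0.00187). Car2, a carbonic anhydrase, read 7.01, 6.65, 5.93, 5.65 and 8.29 at 7 days and 9.57, 8.52, 9.06, 8.39 and 8.71 at 14 days, without overlap, and differed by 2.14 (standard error 0.442, adjusted p = 0.00832). Chac1, which breaks down glutathione, differed by 2.25 (standard error 0.452, adjusted p = 0.0078), and Cth, which makes cysteine from cystathionine, by 2.13 (standard error 0.542, adjusted p = 0.0171). The efflux transporter gene Abcg2 differed by 2.38 (standard error 0.511, adjusted p = 0.00951) and the phosphatase gene Dusp14 by 2.14 (standard error 0.331, adjusted p = 0.00355). Insig1, a sterol-regulated protein of the endoplasmic reticulum, read 10.50, 9.38, 9.78, 9.08 and 9.48 at 7 days and 11.20, 11.22, 11.26, 10.96 and 11.16 at 14 days. It differed by 1.52 (standard error 0.216, adjusted p = 0.00282). Of 21 measured sterol synthesis genes Insig1 was the 1 called higher and 4 were lower (a share close to the 17.7% of all genes), namely Pmvk, Cyp51, Idi1 and Ebp, enzymes of the pathway, at differences between -0.50 and -0.33. Higher calls were 3 after subtraction of the array median, 2 without 7 day replicate 1, with a replicate block, after repeated quantile normalization, with the brightest probeset or with array weights, and 0 with the naïve arrays in the model. Lower calls were 0 without 14 day replicate 3 or 5 and after repeated quantile normalization, 1 without 14 day replicate 1 or 4, and 2 without 7 day replicate 1, 3 or 4 or 14 day replicate 2, with a replicate block and with the naïve arrays. Padi4, a deiminase best known from granulocytes, differed by 1.73 (standard error 0.463, adjusted p = 0.0204). In Ass1, Asl, Car2, Chac1, Cth, Abcg2, Dusp14, Insig1 and Padi4 7 day replicates 1 and 5 lay above 7 day replicates 2 and 4, as they did in the inner root sheath score. Naïve replicates 1 and 2 also lay above the other naïve arrays in Ass1, Car2, Chac1, Cth, Abcg2, Dusp14 and Insig1, as in that score. Ass1 read 10.93 and 10.67 in that pair and 6.43 to 6.91 in the others. Whether these increases are separate from those of hair genes was not tested. With the naïve arrays in the model Ass1, Car2, Chac1, Cth, Abcg2, Dusp14, Insig1 and Padi4 were not called.

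Among genes whose groups did not overlap, the largest decreases included genes of wound matrix, its inhibitors and inflammation. Lbp, which binds bacterial lipopolysaccharide, read 8.95, 8.72, 10.47, 10.44 and 8.88 at 7 days and 7.50, 5.79, 5.70, 8.04 and 6.97 at 14 days. The groups did not overlap, and both lay above the naïve arrays (3.96 to 5.41). It differed by -2.69 (standard error 0.526, adjusted p = 0.00707), a 6.46-fold change. Timp1, an inhibitor of matrix metalloproteinases, read 10.71, 11.07, 11.44, 12.22 and 10.66 at 7 days and 9.35, 8.67, 8.47, 9.84 and 8.85 at 14 days. It too stayed above the naïve arrays (6.12 to 8.09) and differed by -2.18 (standard error 0.329, adjusted p = 0.00329). Of the metalloproteinases and their inhibitors as a list, 3 of 24 were lower and 1 higher, against 17.7% and 13.2% of all genes. Without 7 day replicate 1 or 5 there were 6 lower, and with the brightest probeset of each gene 7.

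Collagen-processing enzymes were the list with the largest share called lower. Of 19 measured, 15 were lower (17.7% of all genes were), 1 was higher and 3 were not called, with a median of -0.83. P4ha3, a catalytic subunit of prolyl 4-hydroxylase, read 7.69, 7.58, 8.34, 9.70 and 7.89 at 7 days and 6.97, 6.34, 6.21, 6.91 and 6.53 at 14 days. All 14 day arrays lay below all 7 day arrays and above all naïve arrays (5.42 to 5.93), and the difference was -1.65 (standard error 0.361, adjusted p = 0.0102). P4hb, the partner subunit, differed by -0.55 (standard error 0.118, adjusted p = 0.00978), and Plod1, a lysyl hydroxylase, by -0.89 (standard error 0.201, adjusted p = 0.0115). Without 14 day replicate 5 the count was 8.

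Collagen chain genes moved less. Of 23 measured chains 8 were lower (34.8%, against 17.7% of all genes) and none higher, with a median of -0.33. Col5a3, a minor fibrillar chain, read 10.30, 11.13, 10.72, 11.70 and 10.56 at 7 days and 9.63, 9.42, 9.23, 10.22 and 9.45 at 14 days. The groups did not overlap, both lay above the naïve arrays (8.07 to 9.03), and the difference was -1.29 (standard error 0.26, adjusted p = 0.0078). Col6a3, a chain of microfibrillar collagen, differed by -1.06 (standard error 0.217, adjusted p = 0.00812). The chains of collagen type I were not called, with differences of -0.05 for Col1a1 and -0.14 for Col1a2, at means of 13.5 to 13.8 that lie near the top of the scale. The count was 4 or 5 without 7 day replicate 3 or 14 day replicate 3, 4 or 5, 3 with the naïve arrays in the model and 5 after quantile normalization was repeated.

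Of 35 measured matricellular and wound matrix genes, 18 were lower (51.4%, against 17.7% of all genes) and 1 was higher, with a median of -0.66. Vcan, the large proteoglycan versican, read 8.44, 8.88, 9.21, 9.85 and 8.71 at 7 days and 7.77, 7.97, 7.65, 8.19 and 7.84 at 14 days. The groups did not overlap, all 5 of its probesets fell, and the difference was -1.13 (standard error 0.227, adjusted p = 0.0078). Lgals1, galectin 1, differed by -1.06 (standard error 0.183, adjusted p = 0.00471), Lrrc17, a secreted leucine-rich protein, by -1.60 (standard error 0.4, adjusted p = 0.0161), and Srpx2, a secreted sushi-repeat protein, by -1.59 (standard error 0.398, adjusted p = 0.0161). The exception was Ccn1, a matricellular gene that is also induced quickly by growth factors, at 5.63, 6.37, 5.75, 5.59 and 6.33 at 7 days and 9.28, 7.09, 6.79, 7.05 and 7.53 at 14 days. It was higher at 14 days in all arrays, by 1.62 (standard error 0.416, adjusted p = 0.018), with the highest value in replicate 1. The count of lower genes was 9 without 14 day replicate 2 and 10 without 14 day replicate 3 or 5. Of 10 small leucine-rich proteoglycans 4 were lower (2 without 14 day replicate 3 or 5 and after repeated quantile normalization, and 1, which was not Lum, with the naïve arrays in the model). They included Aspn at -1.50 (standard error 0.322, adjusted p = 0.00964) and Lum at -1.03 (standard error 0.196, adjusted p = 0.00655), both of which bind collagen fibrils. Serpine2, an inhibitor of serine proteases, differed by -1.55 (standard error 0.306, adjusted p = 0.00728).

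**Figure D2:**
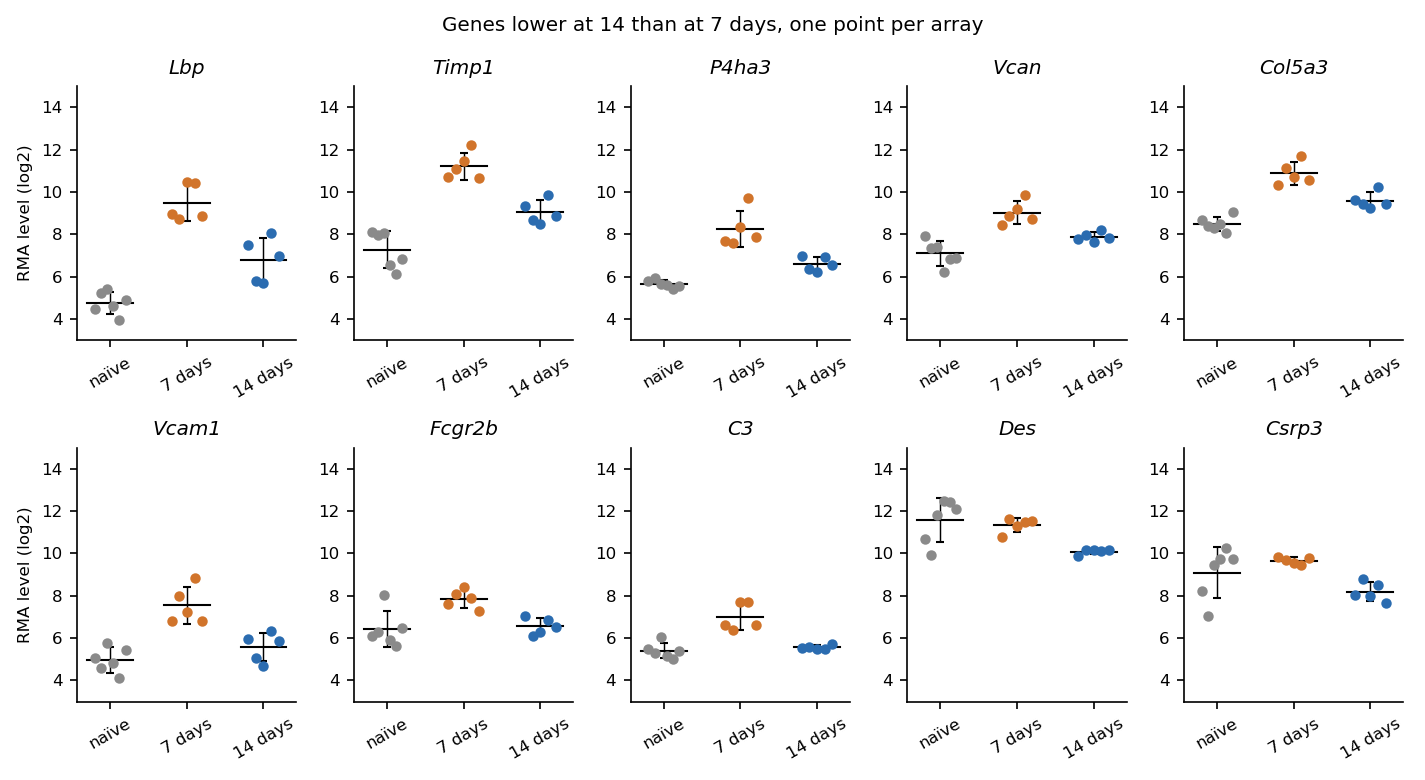
Log2 RMA level of 10 genes called lower at 14 than at 7 days, with 1 point per array for 6 naïve, 5 7 day and 5 14 day rats, and lines for the mean and SD of each group. The 5 14 day points lie below all 5 7 day points in every panel. In Lbp, Timp1, P4ha3 and Col5a3 they remain above all naïve points, while in Des and Csrp3 the naïve points span the 7 day level.

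Most macrophage genes fell. Of 33 measured macrophage and myeloid genes, 21 were lower (63.6%, against 17.7% of all genes), 1 was higher and 11 were not called. Their median was -0.64. With the naïve arrays in the model 9 were lower, and neither Fcer1g nor Gpnmb was called. Fcgr2b, the inhibitory receptor for immunoglobulin G, read 7.63, 8.08, 8.42, 7.90 and 7.26 at 7 days and 7.03, 6.07, 6.30, 6.87 and 6.54 at 14 days. No 14 day array fell within the 7 day range, and the difference was -1.29 (standard error 0.232, adjusted p = 0.0053). Cd68, a lysosomal glycoprotein of macrophages, read 8.69, 9.51, 9.56, 9.62 and 9.03 at 7 days and 8.53, 8.39, 7.92, 8.19 and 8.28 at 14 days, without overlap, and differed by -1.02 (standard error 0.183, adjusted p = 0.0053). The shared receptor chain gene Fcer1g differed by -0.85 (standard error 0.161, adjusted p = 0.00651). Gpnmb, a glycoprotein of macrophages and pigment cells, was the 1 member that was higher, by 0.74 (standard error 0.198, adjusted p = 0.02). In the list score, 7 day replicates 2, 3 and 4 stood at 0.50 to 0.53 while replicates 1 and 5, at -0.11 and -0.05, lay just above the 14 day arrays (-0.41 to -0.11).

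Other immune groups were less uniform. Of 20 complement and acute phase genes 9 were lower (45%, against 17.7% of all genes) and 2 higher (10%, against 13.2%). Of 28 interferon response genes 11 were lower (39.3%) and 1 higher (3.57%). With the naïve arrays in the model, 5 complement genes were lower, Serping1 not among them. C3, the central complement component, read 6.60, 6.40, 7.71, 7.69 and 6.62 at 7 days and 5.53, 5.59, 5.50, 5.50 and 5.73 at 14 days. With no overlap between the times, it differed by -1.43 (standard error 0.253, adjusted p = 0.00512). Serping1, the inhibitor of complement C1, differed by -0.83 (standard error 0.147, adjusted p = 0.00518). Of 54 chemokines, cytokines and adhesion molecules, 13 were lower (24.1%) and 4 higher (7.41%), with a median of only -0.06. Vcam1, an adhesion molecule for leukocytes, lay between 6.80 and 8.83 at 7 days and between 4.70 and 6.34 at 14 days and differed by -1.95 (standard error 0.428, adjusted p = 0.0102). Cxcl13, a chemokine that attracts B cells, differed by -1.74 (standard error 0.346, adjusted p = 0.00738), and Il33, an alarm cytokine of stromal and epithelial cells, by -1.07 (standard error 0.223, adjusted p = 0.00856). Leaving out 7 day replicate 2 or 4 or 14 day replicate 2, 3 or 5 left 7 or 8 lower, the model with naïve arrays 5 and repeated quantile normalization 7. Higher calls were 2 without 7 day replicate 3 or 14 day replicate 3, 4 or 5 or with dim genes left out, 1 without 7 day replicate 4 or 14 day replicate 1 and with the naïve arrays, and 8 after subtraction of the array median. Of 16 T and NK cell genes 1 was called, higher. None of 15 mast cell genes was called in limma, and after subtraction of the array median 2 were. Kit, the mast cell gene with the largest statistic, was at a difference of 0.29 (adjusted p = 0.0548).

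Of 25 measured endothelial genes, 14 were lower (56%, against 17.7% of all genes) and 1 was higher, with a median of -0.41. Ecscr, an endothelial surface protein, read 8.34, 9.19, 8.82, 9.49 and 8.95 at 7 days and 7.83, 7.35, 7.74, 8.04 and 7.78 at 14 days. Groups did not overlap, and it differed by -1.21 (standard error 0.196, adjusted p = 0.0038). Tie1, a receptor of vessels, differed by -0.69 (standard error 0.152, adjusted p = 0.0105). The count was 9 without 14 day replicate 4 and after repeated quantile normalization, and 8 with the naïve arrays in the model. One gene, Lyve1, is in both the endothelial and the macrophage list.

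**Figure D3:**
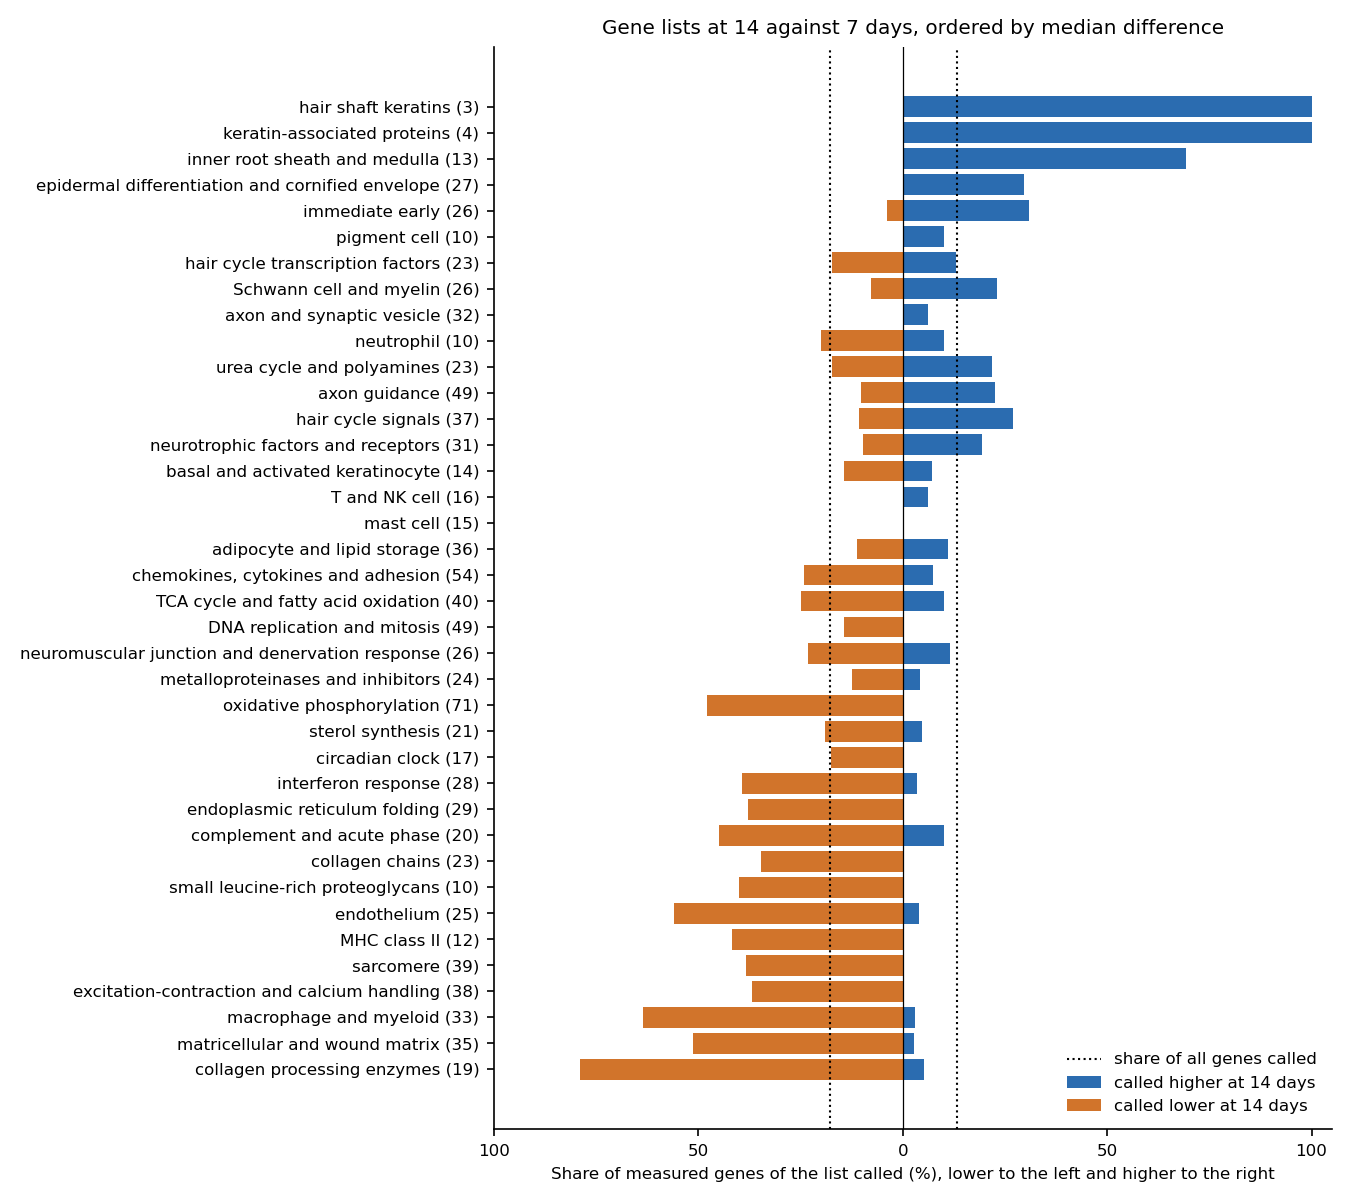
Share of the measured genes of each list called higher (right) or lower (left) at 14 than at 7 days, in percent, with the number measured in brackets and lists ordered by median difference. The dotted lines mark the shares of all genes, 13.2% higher and 17.7% lower. The 3 hair lists at the top stand far to the right, and collagen processing, macrophage, endothelial and matricellular genes reach farthest to the left.

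Muscle genes were lower at 14 days in part. Of 39 measured sarcomere genes 15 were lower (38.5%, against 17.7% of all genes) and none higher, with a median of -0.52. Of 38 genes of excitation-contraction coupling and calcium handling 14 were lower (36.8%) and none higher, with a median of -0.59. Des, the intermediate filament protein desmin, read 10.79, 11.65, 11.28, 11.49 and 11.55 at 7 days and 9.86, 10.14, 10.18, 10.09 and 10.16 at 14 days. The 14 day arrays were tightly grouped below all 7 day arrays, and the difference was -1.27 (standard error 0.146, adjusted p = 0.00187). Csrp3, a LIM protein of the Z-disc, read 9.83, 9.66, 9.53, 9.45 and 9.77 at 7 days and 8.04, 8.79, 7.97, 8.51 and 7.65 at 14 days, without overlap, and differed by -1.46 (standard error 0.191, adjusted p = 0.00243). Neb, the nebulin gene, differed by -1.50 (standard error 0.31, adjusted p = 0.00832), Actn2, alpha-actinin 2, by -0.94 (standard error 0.148, adjusted p = 0.00356), and Smpx, a small muscle protein, by -1.06 (standard error 0.169, adjusted p = 0.00377). The fast myosin gene Myh1 differed by -0.39 (standard error 0.0668, adjusted p = 0.0045). Acta1 and Ckm, the actin and creatine kinase of skeletal muscle, were not called, at differences of -0.15 and -0.27.

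The sarcomere score did not separate the times, since 7 day replicates 1 and 3 scored -0.31 and -0.25, 7 day replicates 2, 4 and 5 scored 0.52 to 0.88, and the 14 day arrays scored -0.37 to -0.08. Without 7 day replicate 1 the count of lower sarcomere genes was 23. It was 8 after quantile normalization was repeated and 2 with the naïve arrays in the model. For excitation-contraction genes it was 22 without 7 day replicate 1 and between 5 and 8 without 7 day replicate 2, 4 or 5 or 14 day replicate 1, 2, 3 or 4, 6 after repeated quantile normalization and 1 with the naïve arrays in the model. How much muscle each piece of skin held is unknown here, and its part in these differences was not tested.

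Of 26 measured genes of the neuromuscular junction and the response of muscle to denervation, 6 were lower (23.1%, against 17.7% of all genes) and 3 higher (11.5%, against 13.2%), with a median of -0.12. With the naïve arrays in the model none was called in either direction. Higher calls were 1 without 7 day replicate 3 or 14 day replicate 2 and with a replicate block, and none without 14 day replicate 1, 3 or 4. Myf6, a myogenic transcription factor, read 7.36, 8.73, 8.58, 7.02 and 7.60 at 7 days and 5.96, 5.81, 7.05, 6.68 and 6.02 at 14 days. One 14 day array lay just above the lowest 7 day array, and the difference was -1.56 (standard error 0.36, adjusted p = 0.0123). Myod1 of the same family differed by -1.01 (standard error 0.198, adjusted p = 0.00719), without overlap, and Mef2c, which works with them, by -1.08 (standard error 0.187, adjusted p = 0.00472). Among the excitation-contraction genes Mb, the oxygen carrier myoglobin, differed by -1.10 (standard error 0.207, adjusted p = 0.00619), and Prkag3, a muscle subunit of AMP-activated kinase, by -1.19 (standard error 0.248, adjusted p = 0.00867). The ubiquitin ligases Trim63 and Fbxo32, which both rise when muscle wastes, were called in opposite directions, Trim63 at -0.88 (standard error 0.207, adjusted p = 0.013) with overlapping groups and Fbxo32 at 0.46 (standard error 0.141, adjusted p = 0.0318). They also ran opposite in naïve skin. In naïve replicates 1 and 2, low in muscle signal, Trim63 read 7.75 and 7.43, against 8.71 to 9.90 in the others. Fbxo32 read 7.81 and 7.97 there, against 6.91 to 7.11, so its signal did not follow that of muscle. The other members called higher were Colq, which anchors acetylcholinesterase, at 0.25 (standard error 0.0771, adjusted p = 0.0313) and Dok7, an adaptor of the junction, at 0.22 (standard error 0.0681, adjusted p = 0.0354). Fbxo32 was called in 5 and Colq and Dok7 each in 4 of the 10 fits that left out 1 array. Of the genes in this paragraph only Mb was still called with the naïve arrays in the model, and of the sarcomere genes named only Des and, from the largest decreases, Csrp3.

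A motif of the kind that MEF2 factors bind, CTA followed by 4 bases of any kind and TAG, was searched on both strands within 250 bases before the start. It occurred in 5 of the 24 sarcomere and excitation-contraction genes that were called lower and had a RefSeq promoter (20.8%). It occurred in 3.43% of all promoters and in none of the 14 hair or 31 matrix promoters. The promoters of 3 of these genes are shown, 120 bases before the start on the gene's own strand in GRCr8, with the match in capitals. A match is no evidence of binding, and the motif reads the same on both strands.
Des, chr9:84299506-84299625, plus strand: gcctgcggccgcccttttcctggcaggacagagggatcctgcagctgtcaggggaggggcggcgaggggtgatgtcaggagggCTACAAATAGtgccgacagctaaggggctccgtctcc
Smpx, chrX:41107138-41107257, minus strand: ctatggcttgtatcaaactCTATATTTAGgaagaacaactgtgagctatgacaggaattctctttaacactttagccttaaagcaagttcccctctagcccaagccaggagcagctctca
Myoz2, chr2:213852779-213852898, minus strand: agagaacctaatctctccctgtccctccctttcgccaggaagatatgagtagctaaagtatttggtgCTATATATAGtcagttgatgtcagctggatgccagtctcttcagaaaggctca

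Genes of oxidative phosphorylation shifted little. Of 71 measured subunits and assembly genes 34 were lower (47.9%, against 17.7% of all genes) and none was higher, with a median of -0.16. Uqcr11, a subunit of complex III, read 10.26, 10.43, 10.31, 10.28 and 10.37 at 7 days and 9.98, 10.02, 10.01, 9.95 and 9.89 at 14 days. The groups did not overlap, the 14 day arrays also lay below all naïve arrays (10.18 to 11.10), and it differed by -0.36 (standard error 0.0521, adjusted p = 0.00287). Atp5mf, a subunit of the ATP synthase, differed by -0.36 (standard error 0.0664, adjusted p = 0.00579). The count of lower subunits rested on scaling, with 21 lower and 2 higher after subtraction of the array median and 6 lower and 4 higher after repeated quantile normalization. It was 21 and 20 without 14 day replicates 4 and 5, 22 with a replicate block and 3, which did not include Uqcr11, with the naïve arrays in the model. The list score was 0.02 to 0.19 at 7 days and -0.17 to -0.05 at 14 days. The sarcomere score, lower in the 14 day arrays than in 3 of the 7 day arrays, moved in the same direction, and its part was not tested.

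Of 40 measured genes of the TCA cycle and fatty acid oxidation 10 were lower (25% of the list, against 17.7% of all genes). Called higher were 4 (10%, against 13.2% of all genes). Dld, shared by several dehydrogenases, differed by -0.49 (standard error 0.091, adjusted p = 0.00598), and Idh2, the mitochondrial isocitrate dehydrogenase, by -0.81 (standard error 0.138, adjusted p = 0.00455). Higher at 14 days were Acadvl and Hadh, enzymes of fatty acid oxidation, at 0.39 (standard error 0.0811, adjusted p = 0.00844) and 0.27 (standard error 0.0594, adjusted p = 0.0102), Cs, citrate synthase, at 0.26 (standard error 0.0632, adjusted p = 0.0155), and Cpt2, which passes fatty acids into the mitochondrion, at 0.36 (standard error 0.11, adjusted p = 0.0314). With the brightest probeset Cs was at -0.093 and not called, and Cpt2 was called in 3 of the 10 fits that left out 1 array. After either rescaling 7 were higher. Lower calls were 5 after repeated quantile normalization and 4, without Idh2, with the naïve arrays in the model.

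**Figure D4:**
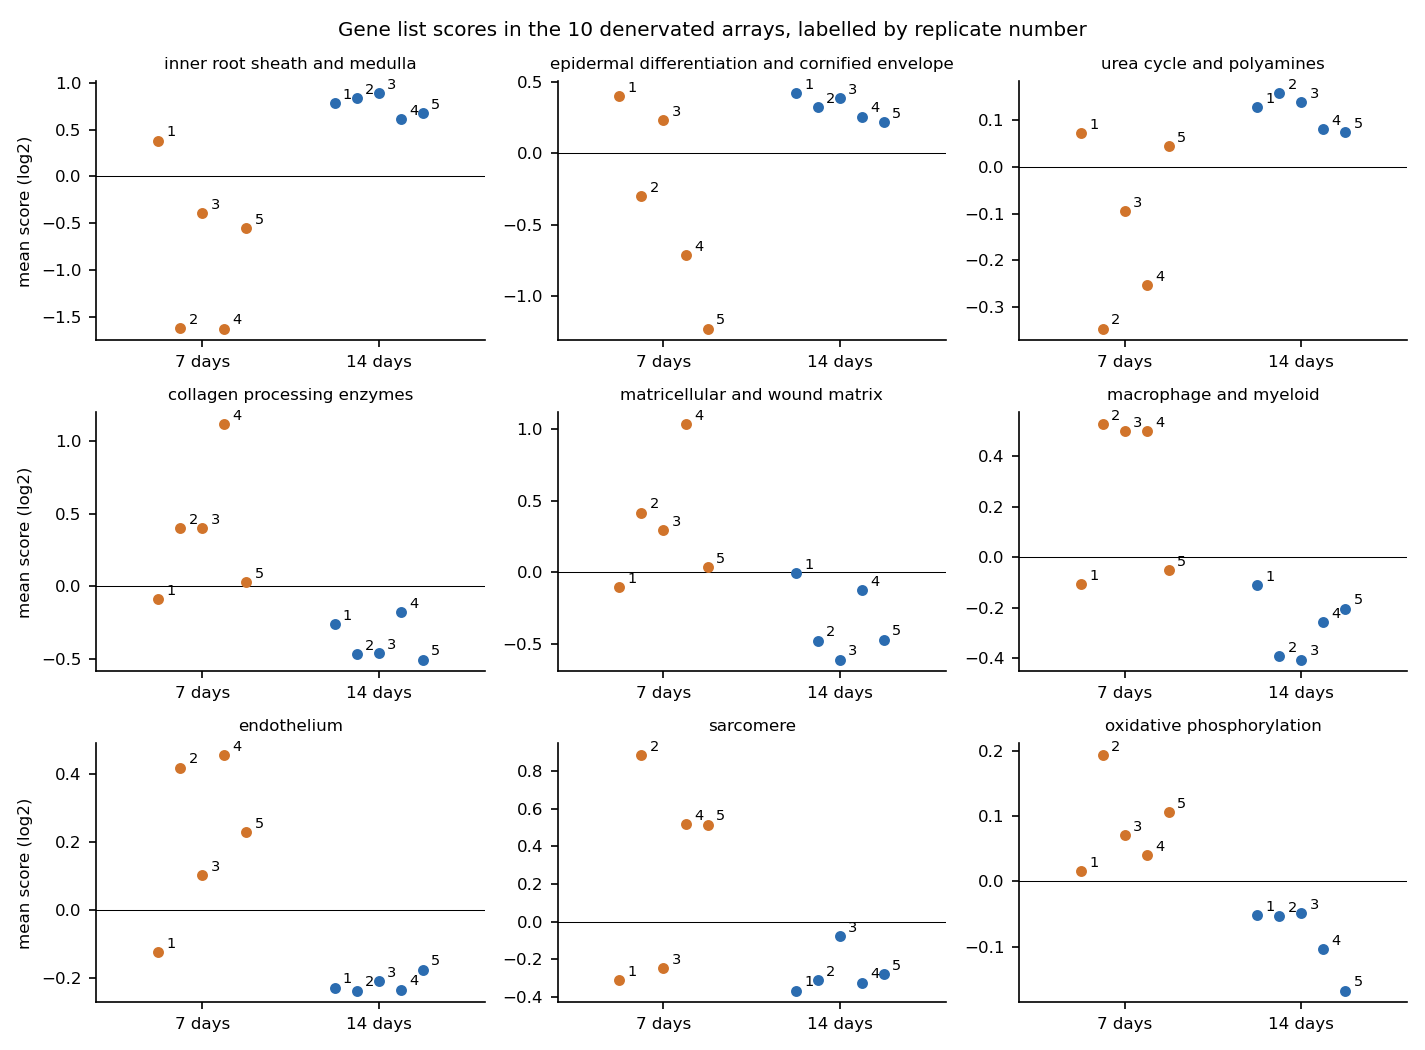
Mean score of 9 gene lists in each denervated array, in log2 units relative to the mean of the 10 arrays, with points labelled by replicate number. The times overlap in the epidermal, matricellular and sarcomere panels and not in the others, although by a very small margin in the macrophage and urea cycle panels, and in every panel 7 day replicate 1 is the 7 day array nearest to the 14 day arrays or among them.

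Nerve-related genes changed in small steps. Of 26 measured Schwann cell and myelin genes 6 were higher (23.1%, against 13.2% of all genes) and 2 lower (7.69%, against 17.7%). Lower calls were 1 without 7 day replicate 2 or 3, with a replicate block or with array weights, and 0 without 7 day replicate 4 or any 14 day array, with the naïve arrays and after either rescaling. Mag, a myelin glycoprotein, read 4.74, 4.56, 4.49, 4.56 and 4.79 at 7 days and 4.95, 5.31, 5.13, 5.03 and 5.02 at 14 days. These values are low on the scale. No 14 day array fell within the 7 day range, and the difference was 0.46 (standard error 0.0827, adjusted p = 0.00536). Gjb1, connexin 32 of myelinating Schwann cells, read 5.38, 5.44, 5.14, 5.37 and 5.73 at 7 days and 5.77, 5.87, 5.86, 5.75 and 5.92 at 14 days, without overlap, and differed by 0.42 (standard error 0.0947, adjusted p = 0.0111). Mbp, a major myelin protein, was not called, at a difference of 0.13 (adjusted p = 0.723). Of 32 axon and synaptic vesicle genes 2 were higher (6.25%, a smaller share than in all genes) and none lower. They included the vesicle protein gene Syp, at 0.42 (standard error 0.0757, adjusted p = 0.0053). The count of higher genes was 13 after subtraction of the array median and 6 and 4 without 7 day replicates 5 and 1. It was 1 without 7 day replicate 2, 3 or 4 or 14 day replicate 2, 3, 4 or 5.

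Of 31 measured neurotrophic factors and receptors 6 were higher (19.4%, against 13.2% of all genes) and 3 lower (9.68%, against 17.7%). Ptn, the secreted growth factor pleiotrophin, read 7.17, 7.17, 7.22, 7.51 and 7.25 at 7 days and 6.63, 6.56, 6.69, 6.68 and 6.65 at 14 days. All 7 day arrays lay above the naïve arrays (6.21 to 6.97) and all 14 day arrays inside their range, and the difference was -0.62 (standard error 0.0707, adjusted p = 0.00187). Mdk, midkine of the same family, differed by -0.88 (standard error 0.185, adjusted p = 0.00881). Cntf, the ciliary neurotrophic factor of Schwann cells, differed by -0.41 (standard error 0.0695, adjusted p = 0.00459). Lif, a cytokine that acts on neurons and immune cells, read 4.54, 4.61, 4.58, 4.58 and 4.54 at 7 days and 4.94, 5.08, 5.13, 4.96 and 5.07 at 14 days, low on the scale but without overlap, and was higher by 0.46 (standard error 0.0517, adjusted p = 0.00187). Sort1, a sorting receptor that binds proneurotrophins, was higher by 0.50 (standard error 0.101, adjusted p = 0.0078). Higher calls fell to 3 without 7 day replicate 3 or 14 day replicate 3 and to 2 without 7 day replicate 4, and lower calls rose to 5 without 7 day replicate 1 or 5. Cntf was not called with the naïve arrays in the model, and after subtraction of the array median 10 were higher. Gdnf, a survival factor for neurons named after its values were seen, was at a difference of 0.19 (adjusted p = 0.0559).

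Of 49 measured axon guidance genes 11 were higher (22.4%, against 13.2% of all genes) and 5 lower (10.2%, against 17.7%). Nrp1, a receptor for semaphorins and for vascular endothelial growth factor, read 8.73, 9.54, 8.99, 9.64 and 9.12 at 7 days and 8.52, 8.14, 8.20, 8.51 and 8.26 at 14 days. It differed by -0.88 (standard error 0.168, adjusted p = 0.00667), without overlap. Rgma, a repulsive guidance molecule, differed by -0.51 (standard error 0.105, adjusted p = 0.00819). Higher calls were 6 and 7 without 14 day replicates 2 and 3, 5 with the naïve arrays in the model and 4 with the brightest probeset of each gene. Lower calls were 8 without 7 day replicate 1 and 3 without 7 day replicate 3 or 4 or any 14 day array. Of 26 immediate early genes 8 were higher (30.8%) and 1 lower (3.85%), with a median of 0.33. Higher calls were 5 without 7 day replicate 4 or 14 day replicate 3 or 5 and with the brightest probeset. They were 3, without Fosl2, with the naïve arrays in the model. Fosl2, a subunit of AP-1, read 7.62, 7.27, 7.47, 6.97 and 7.01 at 7 days and 7.97, 7.63, 8.08, 7.97 and 7.99 at 14 days and differed by 0.66 (standard error 0.134, adjusted p = 0.00796).

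Called genes were then placed against the naïve arrays, as a description with no further test. A gene is said to resolve when every 7 day array lay outside the range of the 6 naïve arrays and every 14 day array inside it, and to emerge when the reverse held. Lying inside the range does not mean standing at the typical naïve level, since a single naïve array can set a limit. Of the 4405 genes called, 52 resolved downward (0.366% of genes tested) and 13 resolved upward (0.0914%). At 14 days 48 emerged above the naïve range (0.338%) and 189 below it (1.33%). Another 38 were above naïve skin at both times and lower at 14 days, 2 were below it at both times and higher at 14 days, 5 were below it and lower, 1 went from above to below and 1 from below to above, and 364 were inside its range at both times. In 3692 genes the arrays of a time lay on both sides of a naïve limit.

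The genes that resolved downward were led by Prss35, a serine protease-like protein, at 7.07, 5.99, 7.14, 9.33 and 6.51 at 7 days and 4.80, 4.42, 4.83, 5.05 and 5.37 at 14 days. Naïve arrays ranged from 3.55 to 5.62, and the difference between the times was -2.31 (standard error 0.511, adjusted p = 0.0105). The upper part of that range came from naïve replicates 1 and 2, at 4.90 and 5.62. All 14 day arrays lay above the other naïve arrays, at 3.55 to 3.80. Aspn and C3, described above, came next. In C3 all 14 day arrays lay above every naïve array except replicate 3, at 6.05. Lyz2, the lysozyme of myeloid cells, read 11.47, 11.95, 12.07, 12.41 and 11.68 at 7 days and 11.03, 10.87, 10.63, 11.03 and 11.20 at 14 days against naïve values of 7.51 to 11.33, a difference of -0.97 (standard error 0.168, adjusted p = 0.00485). Here too only naïve replicate 3, at 11.33, lay above the 14 day arrays. Inhba, the activin A subunit, differed by -0.95 (standard error 0.154, adjusted p = 0.0038), and Mgp, an inhibitor of calcification, by -0.95 (standard error 0.143, adjusted p = 0.00329). P3h1 and Fkbp10, which modify and fold collagen, and Colec12 and Dsel completed the 10 with the largest change, while none of the 10 largest changes among the 13 that resolved upward passed 0.30, the value of Sez6l2, a brain-expressed membrane protein.

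Genes that emerged above the naïve range were led by Acy3, an aminoacylase, at 8.69, 7.07, 6.86, 6.25 and 8.14 at 7 days and 9.81, 9.70, 9.78, 9.56 and 9.68 at 14 days. The highest naïve array was at 9.54, so the 14 day arrays passed that limit by a small margin, and the difference was 2.30 (standard error 0.386, adjusted p = 0.00441). Its naïve arrays were split, with replicates 1 and 2 at 9.52 and 9.54 and the others at 5.49 to 5.89. All 7 day arrays lay in the gap between them. Krt36 came second. Its naïve arrays were split as well, at 8.47 and 8.37 in replicates 1 and 2 and 5.91 to 6.55 in the others. Engase, which trims N-glycans in the cytosol, read 6.98, 6.18, 6.01, 5.89 and 7.16 at 7 days and 7.99, 7.85, 7.63, 7.46 and 7.60 at 14 days and differed by 1.26 (standard error 0.242, adjusted p = 0.00671). Parm1, a mucin-like membrane protein, read 7.21, 6.81, 6.87, 6.86 and 7.34 at 7 days and 8.05, 7.83, 7.90, 7.88 and 7.92 at 14 days against naïve values of 6.81 to 7.60. With no overlap between the times, it differed by 0.90 (standard error 0.105, adjusted p = 0.00187).

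Genes that emerged below the naïve range were the most numerous. Fxr1, an RNA-binding protein abundant in muscle, read 7.92, 9.10, 8.37, 8.63 and 8.53 at 7 days and 7.17, 7.45, 7.56, 7.49 and 7.47 at 14 days against naïve values of 7.63 to 10.09, a difference of -1.08 (standard error 0.179, adjusted p = 0.00428). Mpdz, a scaffold protein of tight junctions, differed by -0.94 (standard error 0.142, adjusted p = 0.00339). Sgcb, the beta-sarcoglycan of the muscle membrane, differed by -0.92 (standard error 0.176, adjusted p = 0.00659), and Satb1, a chromatin organizer, by -0.85 (standard error 0.182, adjusted p = 0.00932). Uqcr11, Atp5mf and Dld are in the same class.

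The class sizes depended on single arrays and on the yardstick. Without 7 day replicate 1, 140 genes resolved downward and 31 upward, and without 7 day replicate 5 the counts were 106 and 58, with 73 emerging upward. Without 7 day replicate 2, 98 resolved downward. The upward resolved count was 20 without 7 day replicate 4, 8 without 14 day replicate 1 or naïve replicate 5, 23 without naïve replicate 1 and 20 without naïve replicate 3. Without naïve replicate 2, 84 emerged upward. With the naïve mean and 2 SD as the yardstick 6 resolved upward, 27 emerged upward and 122 downward. After repeated quantile normalization 32 resolved downward, 22 resolved upward and 112 emerged downward. After subtraction of the array median 27 resolved downward and 101 upward, so the balance of these 2 classes turned with scaling. Of the genes named here as resolved or emerged, Acy3, Lyz2, Fxr1, Sgcb, Satb1 and Uqcr11 were not called with the naïve arrays in the model.

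**Figure D5:**
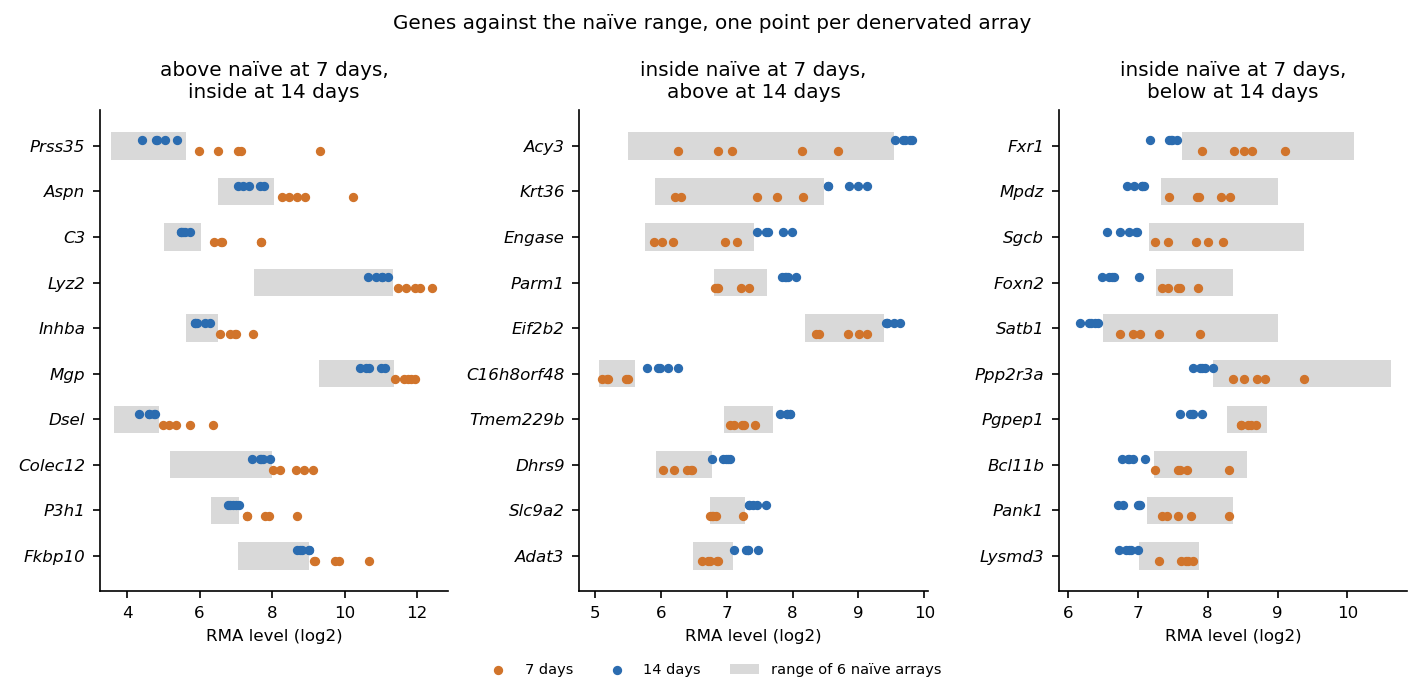
Log2 RMA level in the 10 genes of each class with the largest difference, for genes that resolved downward (left), emerged upward (middle) and emerged downward (right). Grey bars span the 6 naïve arrays and points are single 7 day and 14 day arrays. In the left panel the 7 day points lie right of the bar and the 14 day points on it, and in the other panels the 7 day points lie on the bar and the 14 day points outside it.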

How the data were processed

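Skin RNA of 16 rats was hybridised to Affymetrix rat arrays, 1 per rat. The authors made the deposited values by RMA, in log2 units. R 3.0.1 is named in the submitters' processing notes. Which RMA release was run is not given in the sources used. Of 31099 probesets, 57 controls, 9780 with no gene and 436 with several genes were dropped. The other 20826 were reduced to 14217 genes by the median. The 5 14 day arrays were compared with the 5 7 day arrays in limma 3.58.1 (R 4.3.3), using moderated statistics, with p-values adjusted by Benjamini-Hochberg across all genes. The number of arrays limits the precision. On simulated data the test recovered 92% of 50 genes raised by 1 and 62% of 50 raised by 0.5. Of 50 genes lowered by 1 it recovered 90%, and of 50 lowered by 0.5 it recovered 74%. The simulation changed far fewer genes than were called here and used independent noise, so these rates need not hold for the data.

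The genes named are the 15 largest called differences in each direction with no overlap between the groups, up to 4 called members of each list in each direction by moderated statistic (the largest where none was called), the 10 largest in each resolved or emerged class, and cell type markers. Of these, the genes given with values were chosen afterwards, and mostly for calls that held when arrays were left out. Members, lists and rules were chosen with earlier results of these data known. To score a list, each gene was centred on its mean in the 10 denervated arrays and the centred values were averaged. Alternatives added the naïve arrays to the model or a replicate block, or changed scaling, probeset collapse, dim genes, array weights, moderation, thresholds and the naïve yardstick, and left out each array in turn. Same-numbered arrays deviated together with correlations of -0.23 to 0.29, and only for replicate 4 was the same number the best partner. The sources used do not say whether the numbers mark a shared surgery day, so the block was fitted only as an alternative.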

Additional observations from a re-analysis of the deposited data

Results flagged for a closer look

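Of 321 groups of arrays, from 107 called genes and list scores, 11 held an array far from the others, and chance gives about 1 in 20. Crisp3 was at 5.84 in 7 day replicate 1, against 3.90 to 4.29 in the others. Fosl2 was at 7.63 in 14 day replicate 2, against 7.97 to 8.08. Des was at 9.86 in 14 day replicate 1, against 10.09 to 10.18, and Myod1 in the same array at 4.96, against 5.48 to 5.57. Ptn was at 7.51 in 7 day replicate 4, against 7.17 to 7.25. Naïve replicate 3 was high in Cxcl13, at 9.07 against 5.46 to 6.53, and in Fcgr2b, at 8.04 against 5.64 to 6.49. Fbxo32 was at 6.65 in 7 day replicate 4, against 7.22 to 7.42, Hadh at 7.40 in 14 day replicate 4, against 7.51 to 7.55, and Cyp51 at 8.59 in 14 day replicate 5, against 8.63 to 8.64. Cpt2 was at 8.37 in naïve replicate 3, against 8.91 to 9.21. Of the genes with a distant denervated array, Cyp51 was not called when that array was left out, and the others were.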

How the results depend on the processing

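Of 234 called genes that the naming rule picked, 176 were called in every fit that left out 1 array. Of the 100 of them described here, which were mostly chosen for such calls and so are no measure of stability, 91 were, and 56 were called with the naïve arrays in the model. With the naïve arrays in the model 1430 genes were lower, and the lists held 3 inner root sheath genes higher and 9 macrophage, 2 sarcomere, 3 oxidative phosphorylation and 8 endothelial genes lower. With the replicate block 22 oxidative phosphorylation genes were lower, and of the 100 genes Colq, Dok7, Ebp and Idi1 lost their call. After subtraction of array medians 3105 genes were higher, 21 oxidative phosphorylation genes lower, and 27 genes resolved downward and 101 upward. After repeated quantile normalization 1665 genes were lower, with 8 sarcomere, 6 oxidative phosphorylation and 9 endothelial genes, while 32 resolved downward, 22 resolved upward and 112 emerged downward. At an adjusted p under 0.01, 399 genes were higher and 754 lower, with 3 inner root sheath genes higher and 1 collagen processing, 2 matricellular, 6 macrophage, 8 sarcomere, 10 oxidative phosphorylation and 1 endothelial gene lower. With a difference of at least 1 required, 95 were higher and 91 lower, with 3 collagen processing, 8 matricellular, 2 macrophage, 5 sarcomere, 0 oxidative phosphorylation and 2 endothelial genes. Against the naïve mean and 2 SD, 6 resolved upward, 27 emerged upward and 122 emerged downward. Leaving out 1 array gave 1095 to 2189 genes higher and 1644 to 2866 lower, 4 to 12 inner root sheath genes higher, and 8 to 16 collagen processing, 9 to 25 matricellular, 15 to 25 macrophage, 10 to 23 sarcomere, 20 to 35 oxidative phosphorylation and 9 to 17 endothelial genes lower. It gave 44 to 140 genes resolved downward, 8 to 58 resolved upward, 40 to 84 emerged upward and 151 to 255 emerged downward. With the brightest probeset of each gene the difference turned sign in Prlr (0.21), Cs (-0.093) and Ntn1 (-0.023). The causes were not tested. Values near the top or the bottom of the scale understate differences.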
